A study of Mus musculus with 8 samples.

Results

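Among mouse islet cells that were led by insulin, 421 carried a second islet hormone, and these are called second-hormone cells here. They were chosen by their own hormone UMIs, so hormone levels are a description here and carry no test. Insulin RNA (Ins1 plus Ins2) made up at least 10% of all UMIs (unique molecular identifiers, counted RNA molecules) in each of them, and from 50% to under 95% of H, the summed UMIs of Ins1, Ins2, Gcg, Sst, Ppy and Pyy. They came from 17426 deposited barcodes in 8 libraries, of which 10876 passed the limits on genes and mitochondrial RNA and 8136 also held 5000 or more UMIs. The comparison group was the 5940 insulin-led cells in which insulin reached 95% or more of H (single-hormone cells), and 854 cells in which H made up at least 10% of UMIs and insulin under 50% of H (cells led by Gcg, Sst, Ppy or Pyy) served as the other reference.

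Islets of male C57BL/6 mice (C57BL6/J in the study's methods) aged 12 to 16 weeks were pooled from 10 mice per replicate, split into 4 conditions and cultured for 18 h. The conditions were untreated, the cytokines IL-1β plus IFN-γ, the cytokines with NMMA (an inhibitor of nitric oxide synthase), and NMMA alone. Each was profiled by droplet single-cell RNA-sequencing in 2 libraries of 26549922 to 50731370 UMIs, so the 2 replicates of a condition are separate pools of islets and no value belongs to 1 animal. Whole islets were sequenced, and 655 barcodes with insulin under 10% of UMIs and 10 or more UMIs of endothelial, macrophage or mesenchymal markers (non-endocrine barcodes) are used below for the level of free RNA.

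In adult mouse islets, β-cells make insulin, α-cells glucagon (Gcg), δ-cells somatostatin (Sst) and PP-cells pancreatic polypeptide (Ppy), while peptide YY (Pyy) is found at lower levels in several of these types. The transcription factor Irx1 is known for α-cells, Hhex for δ-cells and Mafa for mature β-cells, and Neurog3 is the factor that starts the endocrine program in the developing pancreas. Cells with more than 1 hormone are common in the fetal pancreas, and droplet data can also hold barcodes that captured a pair of cells.

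The second hormone was Gcg in 199 cells (47.3%), Pyy in 104 (24.7%), Ppy in 75 (17.8%) and Sst in 43 (10.2%). Their promoters are shown because these 4 genes define the classes described below. Each run covers 250 bases before to 50 bases after the gene's start, is credited to RefSeq with the build GRCm38.p6, and is read on the minus strand (chr2:62483604-62483903 for Gcg, chr16:23890795-23891094 for Sst, chr11:102101270-102101569 for Ppy and chr11:102107783-102108082 for Pyy). Capitals mark TATAAA on either strand (a TATA box) and TGACGTCA (a cAMP response element).
Gcg: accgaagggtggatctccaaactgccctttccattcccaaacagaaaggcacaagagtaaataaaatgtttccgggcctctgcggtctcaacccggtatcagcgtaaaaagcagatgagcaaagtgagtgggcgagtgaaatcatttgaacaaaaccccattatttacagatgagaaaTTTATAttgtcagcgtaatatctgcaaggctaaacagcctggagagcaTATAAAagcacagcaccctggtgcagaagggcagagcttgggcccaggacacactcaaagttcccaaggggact
Sst: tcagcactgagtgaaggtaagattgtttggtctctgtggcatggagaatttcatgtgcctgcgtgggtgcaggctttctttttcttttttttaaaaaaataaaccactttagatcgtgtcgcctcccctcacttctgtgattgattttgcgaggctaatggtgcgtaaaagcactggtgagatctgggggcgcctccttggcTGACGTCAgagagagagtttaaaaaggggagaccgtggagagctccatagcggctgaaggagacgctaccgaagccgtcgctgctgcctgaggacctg
Ppy: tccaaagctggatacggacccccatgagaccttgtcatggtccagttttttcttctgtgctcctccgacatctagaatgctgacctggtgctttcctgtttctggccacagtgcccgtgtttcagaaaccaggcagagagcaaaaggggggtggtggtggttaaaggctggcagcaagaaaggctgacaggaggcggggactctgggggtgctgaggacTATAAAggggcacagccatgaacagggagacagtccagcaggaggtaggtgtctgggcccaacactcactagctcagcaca
Pyy: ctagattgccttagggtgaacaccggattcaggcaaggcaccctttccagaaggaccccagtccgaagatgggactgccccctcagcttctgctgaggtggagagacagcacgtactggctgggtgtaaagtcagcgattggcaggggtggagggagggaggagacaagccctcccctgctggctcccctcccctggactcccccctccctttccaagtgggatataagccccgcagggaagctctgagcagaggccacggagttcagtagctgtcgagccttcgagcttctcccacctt
TATAAA stood in the Gcg and Ppy windows and TGACGTCA in the Sst window, starting at -31 of the Ppy and -48 of the Sst start site. Among 32851 mouse promoters of this length, 13.6% held TATAAA and 1.79% held TGACGTCA. The Ppy and Pyy genes lie close together on chromosome 11, on the same strand, at chr11:102099930-102101319 and chr11:102106676-102107832 (GENCODE M21).

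Second-hormone cells were present in every library, and their share differed between the replicates. In replicate 1, the untreated library held 94 (5.48% of insulin-led cells), the cytokine library 17 (1.54%), the library with cytokines and NMMA 17 (2.66%) and the NMMA library 22 (3.18%). In replicate 2, the same order of conditions gave 52 (8.84%), 58 (11.4%), 36 (8.70%) and 125 (17.9%). All 4 shares of replicate 2 lay above all 4 of replicate 1, with totals of 12.3% and 3.62%. The limit on genes differed, at 5500 in replicate 1 and 6500 in replicate 2. In replicate 2 the median second-hormone cell held 5746.5, 5120.5, 5349 and 5562 genes, in the same order of conditions. Above the limit of their own replicate, 25.6% (replicate 1) and 44.4% (replicate 2) of insulin-led barcodes carried a second hormone. The part of the differing limits in the gap between replicates was not tested. The shares with cytokines and with NMMA alone were below the untreated share in replicate 1 and above it in replicate 2, and the share with cytokines and NMMA was below it in both. The exact 95% binomial intervals, which cover counting error only, were 4.45–6.66% for the untreated library and 0.900–2.45% for the cytokine library of replicate 1. For replicate 2 they were 6.68–11.4% and 8.73–14.4%. The share with cytokines and NMMA in replicate 2 lay inside the interval of its untreated library. The share is given as a description, since its limits are the rule itself.

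**Figure D1:**
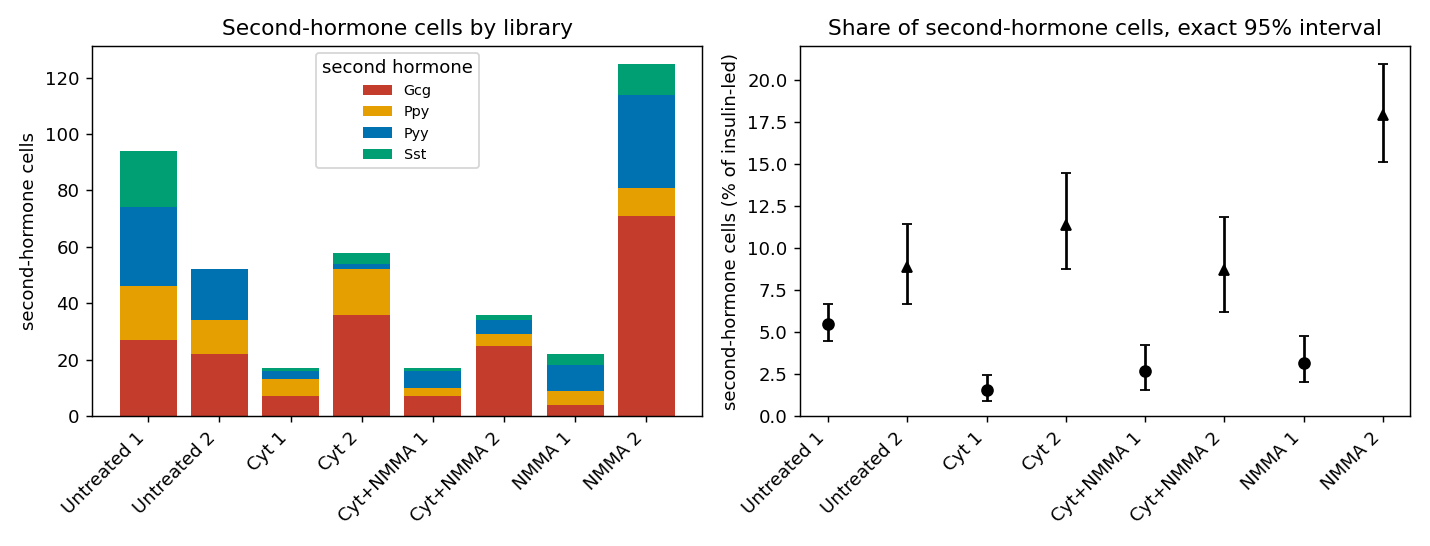
Left panel: number of second-hormone cells in each of the 8 libraries, stacked by second hormone. Right panel: their share of insulin-led cells (%), with exact 95% binomial intervals. The shares run from 1.54% to 17.9%, and those of replicate 2 lie above those of replicate 1, whose limit on genes was lower.

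The rule's limits cut through a continuous range. The highest second-hormone cell stood at 94.98% insulin of H and the lowest single-hormone cell at the limit of 95%, with 23 cells within 1 percentage point on each side. At the lower limit, the nearest cells stood at 49.99% and 50.59%. Insulin made up 50–60% of H in 29 second-hormone cells, 60–70% in 58, 70–80% in 79, 80–90% in 149 and 90–95% in 106. The second hormone itself was therefore mostly a minor part: the median share of H was 14.2% for Gcg in Gcg-carrying cells, 11.9% for Ppy in Ppy-carrying, 8.30% for Pyy in Pyy-carrying and 7.22% for Sst in Sst-carrying cells.

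Second-hormone cells held more genes than single-hormone cells. The median was 28830 UMIs and 5120 genes per cell in second-hormone cells, and 24945 UMIs and 4185.5 genes in single-hormone cells. Within libraries, the ratio of median genes was above 1 in 7 of 8 (median ratio 1.15) and that of median UMIs in 4 of 8 (median ratio 1.06). Median UMIs were 31332 in Gcg-carrying, 28860 in Sst-carrying, 26242 in Ppy-carrying and 23571 in Pyy-carrying cells, against 16297, 13939, 21299 and 13019 in the cells led by these hormones. Insulin took 25.3% of all UMIs in the median second-hormone cell and 38.4% in the median single-hormone cell. Scrublet, which scores barcodes by their likeness to simulated doublets, called 20 of the 421 second-hormone cells (4.75%) and 66 of the 5940 single-hormone cells (1.11%). Its threshold was uneven between libraries, with 4 barcodes called against 26 expected in untreated replicate 2. Marking the expected number of highest scores per library gave 35 second-hormone cells (8.31%) and 79 single-hormone cells (1.33%). In untreated replicate 2 that was 10 of 52 second-hormone cells (19.2%), where the threshold called 0. Pairs of libraries shared 0 to 5 barcodes, and no second-hormone cell had its barcode among the second-hormone cells of another library. The part of doublets in the results below was not tested beyond repeating them without called barcodes.

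Genes other than the 6 hormones were compared on UMIs summed per library and class, with the hormone genes left out of the totals. Levels are in UPM, UMIs per 1000000 non-hormone UMIs of the sum, given as the mean ± SD over libraries of all conditions. In edgeR's quasi-likelihood test with the library as a block, 2002 of 11244 genes differed between second-hormone and single-hormone cells at an adjusted p below 0.05 (17.8%), 859 higher (7.64%) and 1143 lower (10.2%) in second-hormone cells. Without the barcodes called as doublets the count was 1929, and without the expected number of highest doublet scores it was 1817. Of the called genes 42.9% were higher in second-hormone cells, 64.1% without TMM scaling, and 93.1% when the hormone genes stayed in the totals as well, where the median of all genes was 0.22 on the log2 scale. Differences described below passed the test unless a larger adjusted p is given. Genes had to pass a filter on low counts, so the counts within lists below describe the tested genes only. A gene near 0 in single-hormone cells could pass only through sums in which it is higher. Counts of such genes as higher are therefore a description of the lists and no test of them. Irx1, Hhex and Mest are such genes, so their adjusted p-values and lack of overlap below carry the same limit.

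The factors and secreted proteins of α-cells were higher in second-hormone cells. Of the 11 α-cell genes, 10 rose and none fell, with a median log2 difference of 2.69 against -0.02 over all genes tested. Irx1, an α-cell transcription factor, ranged from 12.8 to 60.3 UPM (median 23.4) in the 8 second-hormone sums and from 0.054 to 1.47 in the single-hormone sums. The groups did not overlap, and its log2 difference was 5.88 ± 0.29 (SE, adjusted p = 5.63e-20, edgeR, higher in 8 of 8 libraries). Irx2, of the same family, was at 43.1 ± 17.0 against 3.17 ± 2.23 (SD, n = 8; log2 difference 3.65 ± 0.20). Transthyretin (Ttr), a carrier of thyroid hormone and retinol-binding protein that α-cells make in quantity, was at 1179 ± 464 against 196 ± 130 (SD, n = 8; log2 difference 2.69 ± 0.30). Gc, the vitamin D binding protein, and Slc38a5, an amino acid transporter, followed with log2 differences of 3.38 and 3.94. Pcsk2, the convertase shared by α- and β-cells, differed least among the α-cell genes that rose, by 0.25 ± 0.06.

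Genes of δ-cells were higher as well. Of 6 listed δ-cell genes 4 passed the filter and 3 rose (median log2 difference 4.61). Hhex, the factor that δ-cells require, ranged from 3.04 to 60.5 UPM (median 25.4) in second-hormone cells and from 0 to 1.47 in single-hormone cells. Its highest sums were the untreated and NMMA libraries, and its lowest the libraries with cytokines. The log2 difference was 5.10 ± 0.40 (SE, adjusted p = 1.28e-06, edgeR). Rbp4, the retinol carrier of the blood, was at 1118 ± 321 against 35.0 ± 11.4 (SD, n = 8), a log2 difference of 4.91 ± 0.23 (SE). Ptprz1, a receptor phosphatase, differed by 4.31 ± 0.44. Both listed PP-cell genes that passed the filter, Etv1 and Meis2, also rose, by 2.80 and 0.41 on the log2 scale. Etv1 and Rbp4 were not particular to 1 type of hormone-led cell here. Etv1 averaged 439 UPM in Gcg-led, 370 in Ppy-led, 349 in Pyy-led and 270 in Sst-led cells. Rbp4 averaged 2949 in Gcg-led and 5155 in Sst-led cells.

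Genes of immature or progenitor cells were mostly higher. Of 16 listed genes 8 passed the filter, 5 rose and 1 fell (median log2 difference 1.004). Mest, an imprinted gene of fetal tissues, ranged from 3.41 to 52.1 UPM (median 20.2) in second-hormone cells and from 0 to 1.80 in single-hormone cells, a log2 difference of 5.41 ± 0.43 (SE, adjusted p = 4.36e-07, edgeR). Cd24a, a surface protein of progenitors and δ-cells, was at 50.2 ± 28.4 against 5.89 ± 2.89 (SD, n = 8), with a log2 difference of 3.08 ± 0.43 (SE, adjusted p = 0.00198, edgeR). Sox4, a factor of endocrine progenitors, rose by 0.55 ± 0.09 and Dlk1 by 1.45. Insm1, a factor of endocrine differentiation, fell by 0.41 on the log2 scale. Neurog3 did not pass the filter. Its level was 42.2 and 24.2 UPM in the untreated second-hormone cells and 57.6 and 21.5 with NMMA, against 4.11 and 1.80, and 2.05 and 1.24, in the single-hormone cells of the same libraries. With cytokines it was 3.41 and 0, and with cytokines and NMMA 3.04 and 1.39. Fitted without the filter, Neurog3 had a log2 difference of 3.52 ± 0.26 (SE, adjusted p = 4.28e-22, edgeR) and Gap43, a growth-cone protein, one of 4.39 ± 0.35 (adjusted p = 2.64e-14). In that fit 15 genes of the immature list were tested, of which 9 were higher and 2 lower. Npy (-0.96, adjusted p = 0.190, edgeR) and Aldh1a3 (-0.75, adjusted p = 0.510, edgeR) were not called. Of 11 cell division genes 2 passed the filter and 1, Hmgb2, rose (log2 difference 0.38), and without the filter Mki67 (adjusted p = 0.915, edgeR) and Top2a (adjusted p = 0.884, edgeR) were not called.

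Genes of mature β-cells were lower in second-hormone cells. Of 15 listed genes 13 fell and none rose, with a median log2 difference of -0.73. Mafa was at 462 and 504 UPM in untreated second-hormone cells and at 1082 and 838 in untreated single-hormone cells. It was lower in 8 of 8 libraries, with a log2 difference of -0.83 ± 0.12 (SE, adjusted p = 1.48e-04, edgeR). Slc2a2, the glucose transporter, fell by 0.90 ± 0.09 and Ucn3, a peptide of mature β-cells, by 0.83 ± 0.15, each lower in 7 of 8 libraries. Prlr, the prolactin receptor, fell by 0.99 ± 0.08 and was lower in 8 of 8. Pdx1, which all β-cells need, fell by 0.41, and Iapp, the amylin gene secreted with insulin, by 0.44. Over all libraries the groups overlapped, and these levels also moved with treatment. Mafa ranged from 30.4 to 504 in second-hormone and from 52.0 to 1082 in single-hormone cells. Of 10 granule and hormone-processing genes 4 rose and 2 fell (median 0.09), with Resp18, a granule protein, at 2504 ± 749 against 1524 ± 367 (SD, n = 8). Pcsk1, the convertase that cuts proinsulin, fell by 0.58. Of 11 listed genes that β-cells normally keep off, 3 passed the filter and rose, Hk1, a hexokinase of high affinity, by 3.80 ± 0.39 from a level of 0.4995, Oat by 2.78 and Ldha by 0.86. Without the filter 4 of the 11 were called higher and 0 lower. Hk1 averaged 6.46 UPM in second-hormone cells, and 29.9, 23.3, 3.56 and 0.915 in Gcg-, Ppy-, Pyy- and Sst-led cells. Ldha averaged 69.6, and 141, 143, 153 and 332 in the same led classes, over libraries that differ by class.

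**Figure D2:**
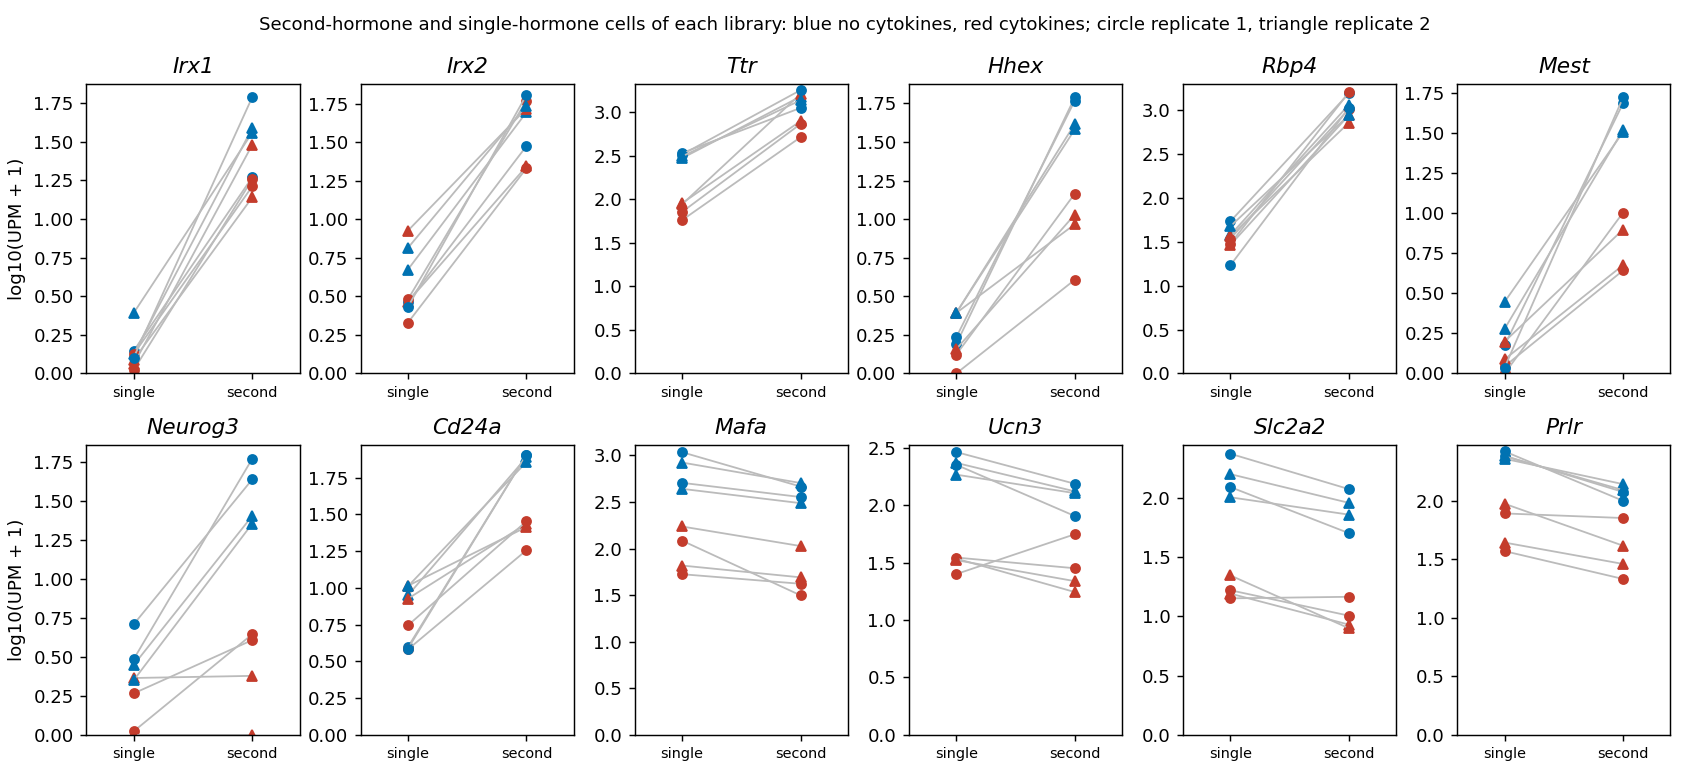
Levels of 12 genes in single-hormone and second-hormone cells of each library, as log10(UPM + 1). Lines join the classes of 1 library; blue libraries had no cytokines and red ones had them, circles are replicate 1 and triangles replicate 2. Irx1, Irx2, Ttr, Hhex, Rbp4, Mest and Cd24a rise along 8 of 8 lines, and Mafa and Prlr fall along 8 of 8.

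By the largest changes with 1 sign in every library, Ly6h (log2 difference 6.04), Pdk4 (5.97), Sgce (5.88), Sytl2 (5.40), Sfrp5 (5.36) and Eef1a2 (5.34) joined Irx1 and Mest among the largest increases. Pdk4 slows the entry of pyruvate into mitochondria, and Eef1a2 is the elongation factor of nerve and muscle. The largest decreases were smaller: Tifa (-1.45), an adaptor of NF-κB signalling, Cox6a2 (-1.43), Tmem215 (-1.15), Dlgap1 (-1.14), Il1b (-1.09), Lcn2 (-1.07), Nabp1 (-1.04) and Gstm2 (-1.03). Markers of other cell types were measured in the same sums. The summed macrophage markers had a median of 83.4 UPM (57.1 to 134) in second-hormone and 110 (61.6 to 256) in single-hormone cells, and Ptprc, the leukocyte antigen CD45, had a UMI in 0 of 421 second-hormone cells. Taken as 3 counts, that allows a share of cells with a UMI of up to 0.713%, which is no limit on cells that express the gene. Endothelial markers summed to 6.90 against 7.53, mesenchymal to 1.07 against 0.704, and acinar to 19.7 (5.55 to 162) against 50.4 (0.338 to 522). The ductal sum was higher, at 1422 against 838, and of its genes Spp1 rose by 2.85 ± 0.49; α-cells also express Spp1.

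The second-hormone cells were then divided by the hormone they carried. Sums with 10 or more cells of a class were available in 5 libraries for Gcg, 4 for Ppy (3 of them with 10 Ppy-led cells), 3 for Pyy and 2 for Sst, and classes with fewer than 3 libraries were not fitted. In Gcg-carrying cells 1004 of 9813 genes differed from single-hormone cells (10.2%, with 5.18% higher and 5.05% lower), and 1935 differed from Gcg-led cells (19.7%, with 12.1% higher and 7.64% lower). Of 11 α-cell genes 10 were higher than in single-hormone cells (median log2 difference 3.41), and of 15 mature β-cell genes 9 were lower and none higher (median -0.71), against -0.01 over all genes. Irx1 stood at 54.5 and 76.0 UPM in the untreated Gcg-carrying sums, 19.3 in the cytokine sum, 44.9 when NMMA was added and 53.9 in NMMA alone, the 3 latter from replicate 2. Its mean of 49.7 ± 20.5 (SD, n = 5) lay between 0.515 ± 0.540 in single-hormone and 124 ± 54.0 in Gcg-led cells, with log2 differences of 6.56 ± 0.33 and -1.30 ± 0.20. Avpr1b, a vasopressin receptor, and Edn3, which encodes endothelin 3, were likewise above single-hormone and below Gcg-led cells, with log2 differences of 7.37 and -1.13 for Avpr1b and 6.93 and -1.10 for Edn3. On the β-cell side, Mafa was at 317 ± 238 (SD, n = 5) in Gcg-carrying cells and 11.001 ± 6.79 in Gcg-led cells, and the ion channel Trpm5 at 77.1 ± 39.1 and 0.984 ± 0.986, log2 differences of 4.86 ± 0.35 and 6.08 ± 0.29. Of the 15 β-cell genes, 13 were higher than in Gcg-led cells, and 10 of the 11 α-cell genes were lower. Without the NMMA library of replicate 2, which gave 71 of the Gcg-carrying cells, the counts over all genes were 541 and 1067. Without called doublets they were 963 and 1917, and without the untreated library of replicate 2 the first was 617.

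Pyy-carrying cells differed from single-hormone cells at 592 of 6379 genes (9.28%, with 5.31% higher and 3.97% lower) and from Pyy-led cells at 540 (8.47%, with 4.86% higher and 3.61% lower), over the untreated libraries and NMMA replicate 2. All 4 δ-cell genes tested were higher than in single-hormone cells, as were 7 of 10 immature genes, and 10 of 15 mature β-cell genes were lower. The medians of these lists were 6.09, 1.41 and -0.80, against -0.01 over all genes. Fitted without the filter, Ghsr of the δ-cell list (adjusted p = 0.0867, edgeR) and Sox9 of the immature list (adjusted p = 0.221, edgeR) were not called. Spock3 of the δ-cell list was called in that fit (adjusted p = 2.08e-05, edgeR). Without called doublets 589 genes differed from single-hormone cells. Hhex was at 66.9, 115 and 68.1 UPM in these sums, against 1.16 ± 0.528 (SD, n = 3) in single-hormone cells, a log2 difference of 6.23 ± 0.33 (SE). Mest was at 42.8, 87.5 and 81.4 against 1.07 ± 0.667, and Neurog3 at 74.98, 54.7 and 41.5 against 2.38 ± 1.52, with log2 differences of 6.08 ± 0.36 and 4.52 ± 0.35. None of these sums overlapped the single-hormone level. Ly6h (7.37) and Ptn (6.96), a secreted growth factor, had the largest log2 increases among genes with the same sign in every library. Against Pyy-led cells, Mest fell by 1.45, Hhex by 1.37, Cd24a by 1.43 and Gap43 by 1.73 on the log2 scale, while 11 of 15 mature β-cell genes were higher. Among the genes that fell against single-hormone cells were Hspb1, a small heat shock protein (-3.31), Nupr1 (-1.39) and Hmox1, the heme oxygenase (-1.31). Without the untreated library of replicate 1 or the NMMA library of replicate 2, 349 and 298 genes differed from Pyy-led cells.

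Ppy-carrying cells had 246 of 6402 genes called against single-hormone cells (3.84%, with 2.01% higher and 1.83% lower) and 702 against Ppy-led cells (11%, with 6.5% higher and 4.47% lower). The mature β-cell list counted 8 lower of 15 in the first comparison (median -0.79) and 14 higher in the second. Without called doublets the counts over all genes were 256 and 697. Fgb, a chain of fibrinogen, was at 429 and 88.4 UPM in the untreated sums, 181 with cytokines and 185 with NMMA, all but the first from replicate 2, and 1 of the 75 cells held 110 of the 241 Fgb UMIs (45.6%). Irx1 was at 0, 0, 3.01 and 15.8 in the same sums on 4 UMIs in all, below the Gcg-carrying sums, which ranged from 19.3 to 76.0. Peg3, an imprinted zinc finger gene, was above both references, at 1543 ± 174 (SD, n = 3) against 867 ± 39.6 in single-hormone and 1258 ± 197 in Ppy-led cells (log2 differences 0.78 and 0.33). Without the untreated library of replicate 1 or 2, the counts over all genes were 89 and 114 against single-hormone cells and 433 and 253 against Ppy-led cells.

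Sst-carrying cells were too few to fit. Their sums in untreated replicate 1 and NMMA replicate 2 held Hhex at 121 and 107, Mest at 135 and 61.7, Neurog3 at 57.4 and 41.1, and Cd24a at 195 and 156 UPM. Irx1 had 0 UMIs in both. Sst-led cells of the same libraries had higher means, with Hhex at 370, Mest at 223, Neurog3 at 94.3 and Cd24a at 550 UPM. Single-hormone cells averaged 1.01, 1.15, 2.67 and 6.10 UPM for these genes, in the same order. For each of them, the Sst-carrying mean lay between the means of the references. With each cell thinned to 5000 UMIs, Irx2 had a UMI in 0 of 43 Sst-carrying cells (exact 95% interval 0–8.22%), and unthinned in 2.33% of them. Hhex was found in 39.5% of these thinned cells (exact 95% interval 24.98–55.6%), against 63.6% of Sst-led and 0.236% of single-hormone cells.

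**Figure D3:**
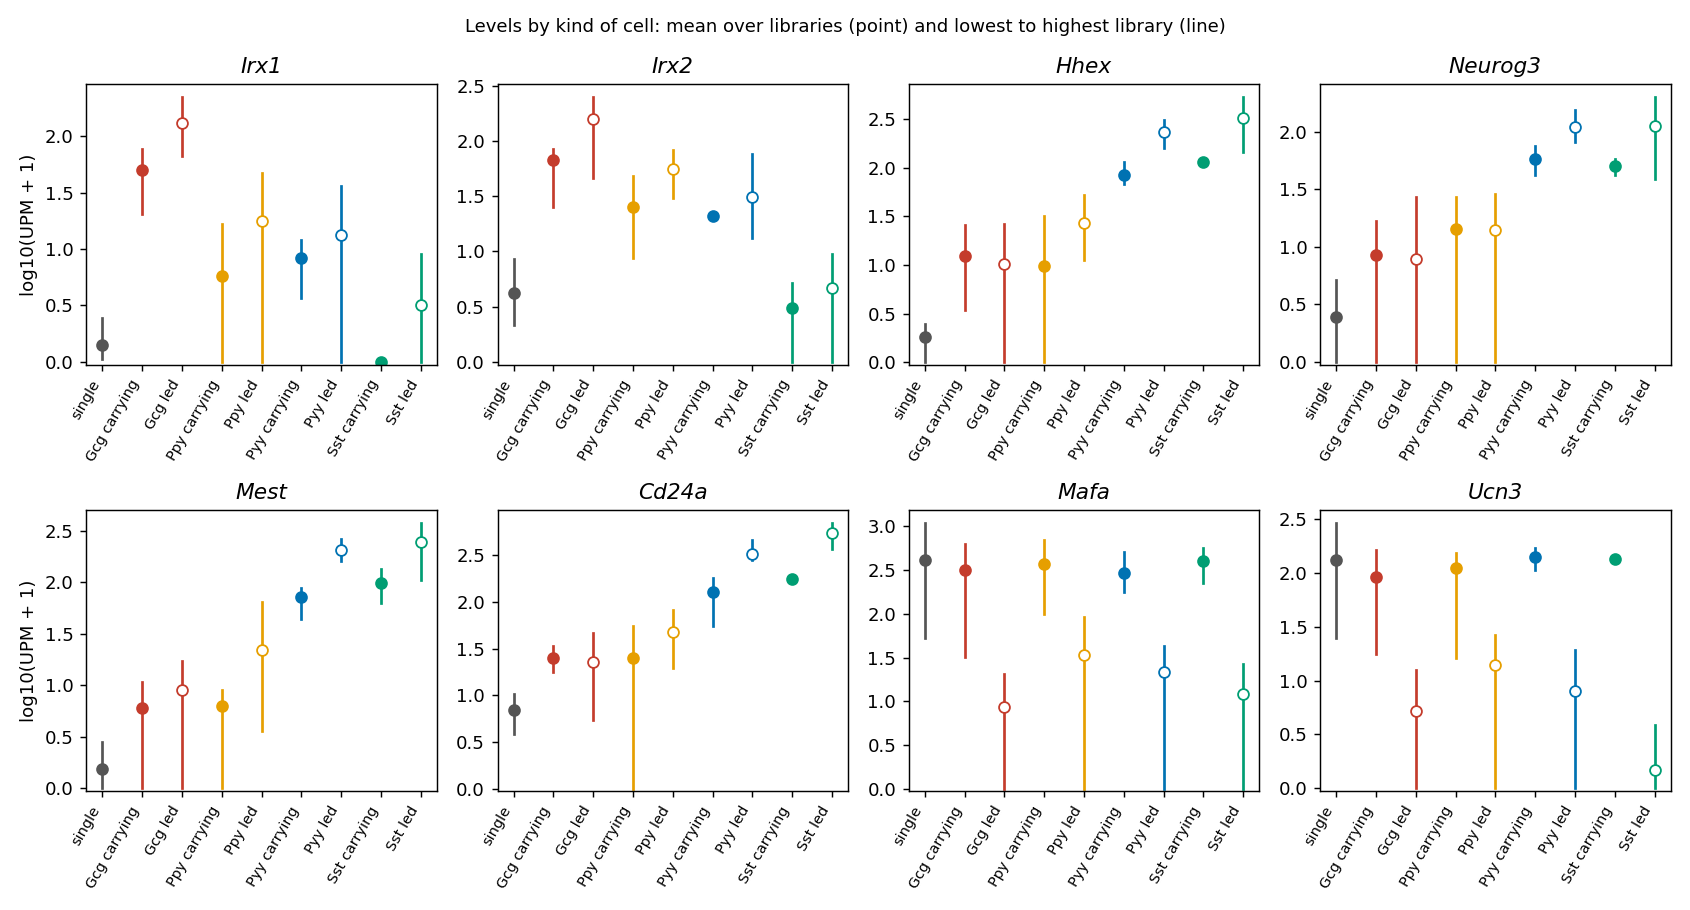
Levels of 8 genes in single-hormone cells and in the cells that carry (filled) or are led by (open) Gcg, Ppy, Pyy or Sst, as log10(UPM + 1). Points are means and lines the range over libraries with 10 or more cells of the class. In Gcg-carrying cells Irx1 averages 49.7 and in Sst-carrying cells it is 0, while the mean of Mafa in each carrying class (291 to 396) lies between those of single-hormone cells (409) and of hormone-led cells (7.53 to 33.2), over libraries that differ by class.

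The classes differed from each other in the fit that compared them directly, over 6636 genes and 4 libraries, of which 3 held a Pyy-carrying sum. Between Pyy- and Gcg-carrying cells 118 genes differed (1.78%, with 1.04% higher and 0.738% lower in Pyy-carrying cells). Pyy-carrying cells had more Mest (log2 difference 3.20), Ptprz1 (2.72), Hhex (2.22), Neurog3 (2.22), Gap43 (2.17), Tspan8 (2.12) and Clu (1.97), the last a secreted chaperone. They had less Irx1 (-2.94), Ttr (-2.44) and Vgf (-2.29). Of the 15 mature β-cell genes 1 was higher, Iapp, and 1 lower, Slc30a8, the zinc transporter of the insulin granule. Between Ppy- and Gcg-carrying cells 67 genes differed (1.01%, with 0.467% higher and 0.542% lower), with Fgb (3.18) and Tspan8 (2.31) higher and Vgf (-3.40), Ttr (-2.51) and Rbp4 (-1.65) lower in Ppy-carrying cells. Slc38a5 had 1 UMI in the Ppy-carrying sums and 97 in the Gcg-carrying sums, a ratio of 0.0330 with an exact counting interval of 8.27e-04 to 0.188. Between Pyy- and Ppy-carrying cells 20 genes differed (0.301%, with 0.241% higher and 0.0603% lower), among them Mest (3.22) and Rbp4 (2.37) higher and Fgb (-4.67) lower in Pyy-carrying cells. Without the library block these counts were 53, 21 and 6. Leaving out untreated replicate 1, untreated replicate 2 or NMMA replicate 2 gave 73, 73 and 76 for Pyy- against Gcg-carrying cells. It was 25 without untreated replicate 1 for Ppy against Gcg, and 12 without untreated replicate 2 and 9 without NMMA replicate 2 for Pyy against Ppy.

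The level of most genes lay between the 2 references. For each listed gene with 30 or more UMIs in a reference and an at least 2-fold difference between single-hormone and hormone-led cells (after adding 0.5 UPM), the position of carrying cells was placed on a scale from 0 (single-hormone) to 100 (hormone-led). In Gcg-carrying cells the 8 α-cell genes with such a difference stood at 33.2 to 49.6 (median 40.8), and the 12 mature β-cell genes at 32.7 to 53.0 (median 42.1). Both lists thus covered nearly the same stretch of the scale. Over all genes with a 2-fold difference, the medians were 40.4 for 947 genes higher in Gcg-led cells and 40.0 for 1204 genes lower in them. Of these, 865 and 1045 lay between the references. That part was smaller in the other classes: 789 of 1133 higher and 814 of 1239 lower genes for Ppy. For Pyy it was 1105 of 1345 and 1106 of 1652, and for Sst 1087 of 1500 and 1184 of 1874. Genes lower in led cells stood above both references in 116 (Gcg), 372 (Ppy), 525 (Pyy) and 609 (Sst) cases. Genes higher in led cells stood below both in 49, 270, 191 and 368 cases. In Pyy-carrying cells the δ-cell, β-cell and immature lists had medians of 35.7, 46.8 and 37.0. In Ppy-carrying cells the medians were 22.7 for α-cell genes, 44.5 for β-cell genes and 60.5 for immature genes. Within these lists, Neurog3 was at 167 in the Gcg and 260 in the Ppy class, that is above the mean of both references, on 28 and 12 UMIs. Fitted without the filter, its log2 difference from hormone-led cells was 0.39 ± 0.46 for Gcg (SE, adjusted p = 0.807, edgeR) and 1.12 ± 0.80 for Ppy (adjusted p = 0.758), neither called. Pooled over all sums, which come from more libraries for led cells, it was at 6.77 UPM in carrying against 7.07 in led cells for Gcg and 10.5 against 11.1 for Ppy.

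**Figure D4:**
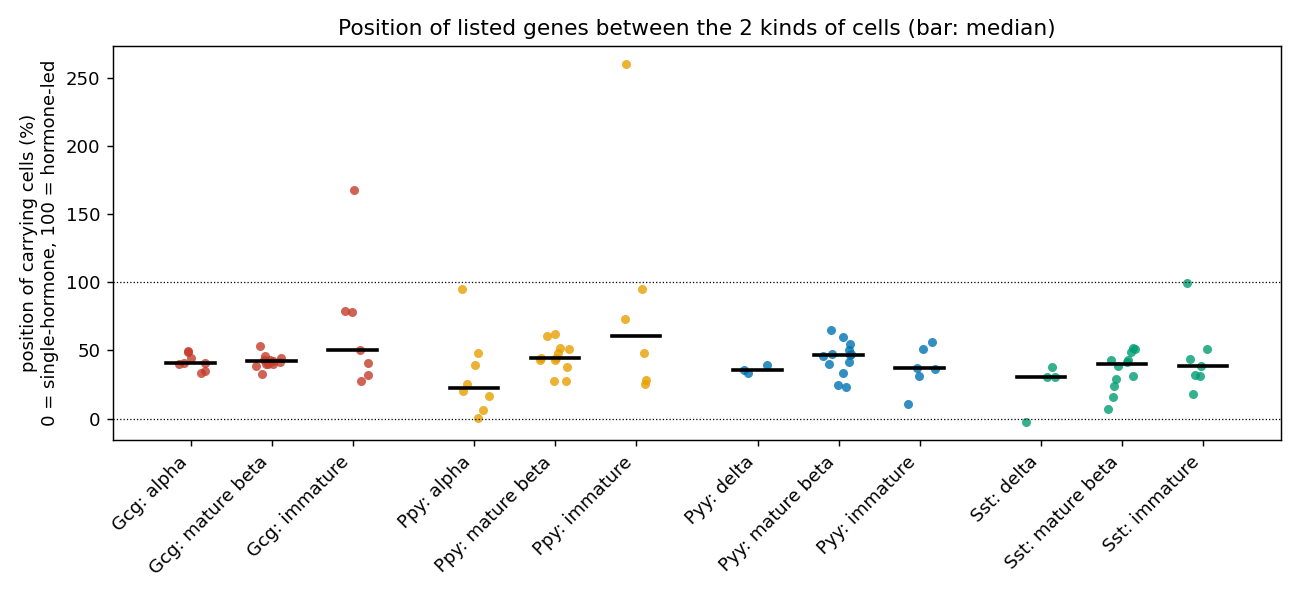
Position of carrying cells for each listed gene that differed at least 2-fold between single-hormone cells (0) and cells led by the same hormone (100), by second hormone and gene list; the bar is the median. The α-cell and β-cell genes of Gcg-carrying cells lie between 32.7 and 53.0.

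Of the 642 genes called in both tests of Gcg-carrying cells, 98.8% lay between the references. The shares were 90.8% of 109 genes for Ppy and 98.8% of 257 genes for Pyy. The exception above both references in Gcg-carrying cells was Neurl3, an E3 ubiquitin ligase, at 170 UPM in the cytokine sum and 229 in the sum with cytokines and NMMA. In these libraries, both of replicate 2, it was at 96.7 and 134 in Gcg-led and 29.2 and 63.6 in single-hormone cells. Without cytokines it was at 2.27 or less in each of the 3 classes. Below both references were AY036118, Khk, Lancl2, Lars2, Pacsin2, Ppib and mt-Nd6. Both tests share the carrying sums, so these counts describe the data and carry no test of their own.

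The genes of both programs were also found in the same barcodes. With each cell thinned to 5000 UMIs, Irx1 was detected in 7.60% of second-hormone cells, 0.118% of single-hormone cells and 0.357% of the 561 non-endocrine barcodes deep enough to thin. The median over all 655 was 12097 UMIs. Unthinned, with medians of 28830 and 24945 UMIs, the shares of second-hormone and single-hormone cells were 25.4% and 0.421%. Neurog3 was detected in 6.89%, 0.471% and 0.178% of the thinned cells, and in 13.5% of Pyy-carrying and 11.6% of Sst-carrying cells against 43.2% of Pyy-led and 25.2% of Sst-led cells. Hhex, at 9.74% of second-hormone and 0.236% of single-hormone cells, was found in 15.7% of non-endocrine barcodes, and Mest and Cd24a in 6.60% and 10.7% of them, so the shares of these 3 genes in second-hormone cells (9.74%, 6.65% and 14.5%) have no clean background here. At least 1 of Irx1 and Irx2 was detected together with at least 1 of Mafa, Ucn3 and Slc2a2 in 40 of 199 Gcg-carrying cells (20.1%, exact 95% interval 14.8–26.3%), against 2.25% of Gcg-led and 0.455% of single-hormone cells. Taken singly, the α-cell and β-cell sets were found in 34.2% and 55.3% of Gcg-carrying cells. They were found in 60.5% and 5.06% of Gcg-led and in 0.825% and 60.3% of single-hormone cells. At least 1 of Neurog3, Mest and Gap43 was found with at least 1 of the same β-cell genes in 24.0% of Pyy-carrying cells (16.2–33.4%), 9.88% of Pyy-led and 0.572% of single-hormone cells. Singly, these 2 sets were found in 30.8% and 48.1% of Pyy-carrying and in 75.3% and 11.1% of Pyy-led cells. Since 1 set is scarce in each reference, the joint shares are a description and carry no test.

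Within the classes, levels moved with the share of insulin. In Gcg-carrying cells with 50–80%, 80–90% and 90–95% insulin of H, the pooled level of Ttr was 3109, 1778 and 688 UPM, that of Irx2 88.8, 58.1 and 41.2, and that of Gc 217, 152 and 86.9. Mafa ran the other way, at 195, 340 and 411. In Pyy- and Sst-carrying cells, Neurog3 was at 77.4, 40.8 and 25.03 and Mest at 101, 68.9 and 38.1, while Mafa, at 246, 347 and 179, followed no such order. These pools mix libraries and have no test.

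Cytokines changed second-hormone cells widely. Between the cytokine and untreated libraries 1880 of 9513 genes differed (19.8%), 1066 higher (11.2%) and 814 lower (8.56%). Without untreated replicate 1, untreated replicate 2 or cytokine replicate 2, the count was 871, 1129 and 902. Of the called genes 56.7% were higher, and 25.8% without TMM, where the median of all genes was -0.33. Of 12 listed cytokine-response genes 9 rose (median log2 difference 6.19, against -0.02 over all genes). Gbp2, a guanylate-binding protein induced by interferon, was at 5.63 and 1.79 UPM in the untreated libraries, 1870 and 1088 with cytokines, 1833 and 1739 when NMMA was added to them, and 0 and 3.52 in NMMA alone. The libraries with and without cytokines did not overlap, and the log2 difference was 8.83 ± 0.49 (SE, adjusted p = 3.22e-07, edgeR). Irf1, the interferon regulatory factor, rose by 3.16 and Ddit3, the stress factor CHOP, by 3.12. Nos2, which makes nitric oxide, was at 0.704 and 0 untreated and 232 and 177 with cytokines, and did not pass the test (adjusted p = 0.063, edgeR). In the single-hormone cells of the same libraries Gbp2 was at 2.90 and 4.62 untreated and 1784 and 1234 with cytokines.

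Mature β-cell genes fell with cytokines in second-hormone cells, 11 of 15 of them, with a median log2 difference of -1.24. Slc2a2 went from 117 and 89.7 UPM untreated to 13.6 and 7.51 with cytokines and 9.13 and 6.93 with cytokines and NMMA. Pdx1 was at 185 and 153 untreated, 27.2 and 23.3 with cytokines, and 113 and 58.3 with cytokines and NMMA. Their log2 differences between cytokines and untreated were -3.23 and -2.48, and those of Mafa and Ucn3 -3.09 and -2.57. Immature genes fell as well, 6 of 10 tested (median -1.32). Mest was at 47.8 and 32.3 untreated, 3.41 and 3.76 with cytokines, 9.13 and 6.93 when NMMA was added, and 52.1 and 31.3 in NMMA alone (log2 difference -3.10 ± 0.51 with cytokines). Neurog3 had 87 UMIs in the untreated sums and 1 UMI in the cytokine sums, a ratio of 0.0179 with an exact counting interval of 4.49e-04 to 0.103 (adjusted p = 0.00292, edgeR). Hhex fell by 2.10 and Gap43 by 2.40 on the log2 scale. The mix of second hormones differed beside these values: Pyy was the second hormone in 30.03% of second-hormone cells without cytokines and 12.5% with them, Sst in 11.9% and 6.25%, and Gcg in 42.3% and 58.6%. Whether the lower Neurog3, Mest and Hhex levels go with that mix was not tested. Of the α-cell genes 3 of 11 fell, and Irx1 (adjusted p = 0.368, edgeR) and Ttr (adjusted p = 0.234, edgeR) were not called, with log2 differences of -0.66 ± 0.48 and -0.69 ± 0.37.

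NMMA added to cytokines changed 291 of 9513 genes against cytokines alone (3.06%, with 1.6% higher and 1.46% lower), and 898 with the islet pool as a block. Of these 291 genes 52.2% were higher, and of those called without TMM 86.0%, where the median of all genes was 0.22. Ddit3 fell by 1.73 and Hspa8, a constitutive chaperone, by 1.21 on the log2 scale, while Pdx1 rose by 1.53 and G6pc2, the islet glucose-6-phosphatase, by 1.97. Il4i1, an amino acid oxidase, was at 204 and 134 UPM with cytokines, 6.09 and 19.4 with cytokines and NMMA, and 0 in both untreated libraries. Wnk3, from the α-cell list, rose by 2.30. The 12 cytokine-response genes had 0 calls either way and a median of 0.10, against 0.02 over all genes. The count fell to 49 and 82 without replicate 1 or 2 of cytokines with NMMA, to 75 and 132 without cytokine replicate 1 or 2, and to 163 and 154 without untreated replicate 1 or 2, whose spread the fit shares. Against untreated libraries, cytokines with NMMA changed 625 genes (6.57%, with 5.02% higher and 1.55% lower) and 984 with the block. Of these 76.5% were higher, and 64.6% without TMM. The count was 300 and 385 without untreated replicate 1 or 2, and 264 without replicate 2 of cytokines with NMMA. The log2 differences of Slc2a2, Mest and Hhex were -3.62, -2.26 and -2.62, and Neurog3 had 2 UMIs, a ratio of 0.0556 (exact counting interval 0.00662 to 0.207). NMMA alone gave 0 calls in edgeR (0% of 9513 genes) with 295 genes at an unadjusted p below 0.05, and 0 calls in DESeq2 and with the block. Without the low-count filter 6 genes were called, and without NMMA replicate 1 it was 1.

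**Figure D5:**
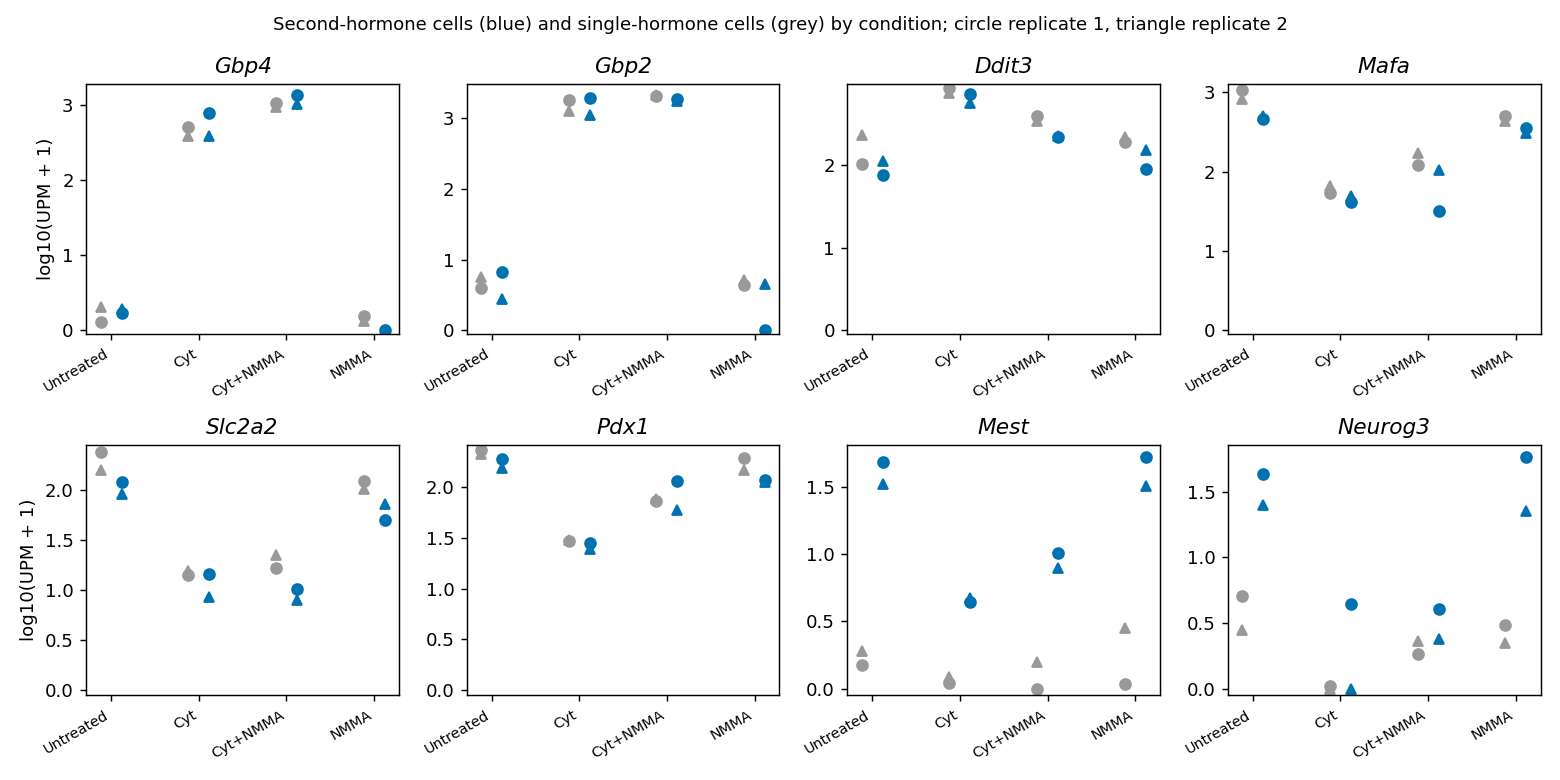
Levels of 8 genes in each library by condition, as log10(UPM + 1), in second-hormone cells (blue) and single-hormone cells (grey), with 2 libraries per condition. Gbp2, Gbp4 and Ddit3 are higher and Mafa, Slc2a2, Pdx1, Mest and Neurog3 lower in both cytokine libraries than in both untreated libraries, in second-hormone cells.

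The response itself was compared between the classes as an interaction, over 12773 genes. The response to cytokines differed at 29 genes (0.227%) and that to NMMA in the presence of cytokines at 15 (0.117%). The response to cytokines with NMMA differed at 38 (0.298%) and that to NMMA alone at 9 (0.0705%). The second-hormone sums also differed in their mix of second hormones between conditions, as given above. The part of that mix in these differences was not tested. Ttr, which went from 1116 and 1507 to 514 and 790 UPM in second-hormone cells and from 339 and 295 to 56.5 and 89.0 in single-hormone cells, had a difference in response of 1.08 on the log2 scale, the second-hormone cells being nearer to their untreated level. Cd24a was at 79.5 and 76.3 untreated and 17.0 and 26.3 with cytokines in second-hormone cells, and at 2.95 and 7.89, and 2.81 and 7.44, in single-hormone cells (log2 difference in response -2.07). Within Gcg-carrying cells of replicate 2, Cd24a was at 24.0 untreated and 16.9 with cytokines, and Ttr at 2815 and 1135. Without the block all 4 counts were 0. Leaving out untreated replicate 1 gave 2, 9, 10 and 2 genes, and leaving out untreated replicate 2 gave 9 for the second count and 24 for the third.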

How the data were processed

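Single-cell RNA-sequencing of mouse islets (2 libraries in each of 4 conditions) was deposited as whole-number UMI counts per gene and barcode. The authors made these counts with Cell Ranger on the mm10 genome; matrix headers name version 3.0.0 for replicate 1 and 6.0.0 for replicate 2. Genes were joined by 30406 shared identifiers, which hold 99.7 to 100% of each library's UMIs. Barcodes were kept with 200 to 5500 (replicate 1) or 6500 (replicate 2) genes and up to 10% mitochondrial UMIs, and 5000 or more UMIs were required. Doublets were scored with Scrublet in scanpy 1.11.5 and kept, and the fits were repeated without them.

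Counts were summed per library and class (10 or more cells), since cells are not replicates. The 6 hormone genes, which chose the cells, were left out. edgeR 4.0.16 (quasi-likelihood F test, robust, filterByExpr, TMM, R 4.3.3) was run with Benjamini-Hochberg adjustment over all genes tested. Classes were compared with the library as a block. Treatments were compared over the 8 sums of second-hormone cells with no block. Replicates of the same number came from 1 islet pool, and their deviations from the group means correlated at 0.203 to 0.374 in 6 pairs of conditions, so the numbers pair the libraries and the blocked fit is given where it moves a count by over 1.5 times. For treatments, p-values reflect the spread between the 2 libraries of a condition, 1 from each pool. For classes and for differences in response, they reflect how the class difference varies between libraries. These libraries come from only 2 pools, so those p-values do not measure the spread between pools. Scripts were tested on simulated data. DESeq2 1.42.0 was an alternative.

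The classes, marker lists and comparisons were chosen with earlier results of these data known. Genes named are those of the marker lists, the 10 largest called increases and decreases in second-hormone against single-hormone cells with the same sign in every library, the 5 largest for each hormone class and for each treatment, and the 5 smallest adjusted p-values for differences between classes or in response. Neurl3 and the genes below both references, and Fgb by cell, were named after their values were seen. Some listed genes enter the counts and medians of their lists but are not reported here by name.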

Additional observations from a re-analysis of the deposited data

Results flagged for a closer look

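The difference in response to cytokines between second-hormone and single-hormone cells passed the test for 29 genes, because the classes' changes differed in the interaction term. The acinar enzyme genes Try5 (log2 difference -13.18), Cpa1 (-11.00), Prss2 (-7.25) and Cela1 (-2.70) were among them. Prss2 was at 9.85 and 0 UPM untreated and 3.41 and 0 with cytokines in second-hormone cells, and at 17.9 and 0, and 15.2 and 217, in single-hormone cells, so the single-hormone cells of cytokine replicate 2 stood apart. The summed acinar markers reached 522 in that class and library; their part in the result was not tested. The other named genes were Cd24a (-2.07), Defb1 (-1.40), an antimicrobial peptide, Dnajb1 (-1.28), a heat shock co-chaperone, and Ttr (1.08).

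For NMMA in the presence of cytokines 15 genes differed in response, among them Nol4l (-2.55), Sprr1a (-2.02), Il4i1 (-1.85), Hamp (1.05), which encodes hepcidin, and Serpina7 (2.19). For cytokines with NMMA against untreated 38 genes differed, among them Cd24a (-2.28), Ehf (-2.20), Cd9 (-2.05), Higd1a (-1.63), Defb1 (-1.41), Ttr (1.72) and Nts (4.85), the neurotensin gene. For NMMA alone 9 genes differed, among them Lrg1 (-3.95), Ttyh1 (-1.62), Dnajb1 (-1.61), Pcp4 (-1.42), Defb1 (-1.19) and Hsph1 (-1.12). In Defb1 the untreated second-hormone sums were 102 and 59.2 UPM and the single-hormone sums 38.5 and 48.6.

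Barcodes above the limit on genes were outside the comparisons. Of 1155 insulin-led barcodes above it, 370 carried a second hormone (32.0%, exact 95% interval 29.3–34.8%), against 6.62% (6.02–7.26%) of those kept. The share above the limit was 25.6% in replicate 1 and 44.4% in replicate 2.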

How the results depend on the processing

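Of the repeated counts of called genes, 113 stayed within 1.5 times the main count and 50 did not, leaving aside single libraries left out. Keeping hormone genes in the totals without TMM gave 4070 genes for second-hormone against single-hormone cells, 1795 for Gcg-carrying against single-hormone and 864 for Pyy-carrying against Pyy-led cells. There the share of called genes that were higher went to 93.1%, 93.9% and 17.8%. It went to 24.96%, 89.2%, 83.9% and 92.7% for Gcg-carrying against Gcg-led, Ppy-carrying against single-hormone and Ppy-led, and Pyy-carrying against single-hormone cells (61.2%, 52.4%, 59.3% and 57.3% in the reported fits), and the log2 differences of Gbp2 (0.019), Hspa8 (0.0306) and Scg3 (0.0472) changed sign.

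Without the replicate block (the library term), the counts were 1324 for second-hormone against single-hormone cells, 98 for Ppy-carrying against single-hormone, 446 against Ppy-led, 285 for Pyy-carrying against single-hormone, 53 for Pyy against Gcg, 21 for Ppy against Gcg, 6 for Pyy against Ppy and 0 for each of the 4 differences in response. With the replicate block, cytokines with NMMA gave 898 genes against cytokines and 984 against untreated; it moved no other treatment count by over 1.5 times.

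Without the low-count filter, the counts were 570 for Ppy-carrying against single-hormone cells, 212 for Pyy against Gcg, 125 for Ppy against Gcg, 49 for Pyy against Ppy, 555 for cytokines with NMMA against cytokines, 6 for NMMA and 24 for the difference in response to cytokines with NMMA against untreated. DESeq2 gave 161 for Ppy-carrying and 316 for Pyy-carrying against single-hormone cells, 352 against Pyy-led, 44, 21 and 9 between classes in the same order, 867, 159 and 349 for cytokines, cytokines with NMMA against cytokines and against untreated, and 0, 0, 5 and 1 for the differences in response. Those differences, in the same order, numbered 16, 9, 13 and 3 with DESeq2's scaling in edgeR, 16, 7, 14 and 3 without TMM scaling, and 19, 6, 19 and 5 with 10000 or more UMIs per cell. Barcodes of 15000 to 40000 UMIs gave 1115 for Gcg-carrying against Gcg-led cells. Second-hormone cells under 90% insulin of H gave 85 for cytokines with NMMA against cytokines, and that limit gave shares of 4.95% in all, 4.37% in untreated replicate 1, 1.25% in replicate 1 of cytokines with NMMA, 8.22% in cytokine replicate 2 and 13.4% in NMMA replicate 2. The cause of these shifts was not tested.

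Leaving out 1 library gave 1532 to 1976 genes for second-hormone against single-hormone cells, 541 to 1136 for Gcg-carrying against single-hormone, 1067 to 1939 against Gcg-led, 89 to 170 for Ppy-carrying against single-hormone, 253 to 548 against Ppy-led, 398 to 432 for Pyy-carrying against single-hormone, 298 to 392 against Pyy-led, 73 to 169 for Pyy against Gcg, 25 to 67 for Ppy against Gcg and 9 to 21 for Pyy against Ppy. For treatments the ranges were 871 to 1963, 49 to 278, 264 to 673 and 0 to 1, and for the differences in response 2 to 35, 9 to 21, 10 to 54 and 2 to 10. Where an arm keeps 1 library, it is assumed to vary like the other groups. Over 22 settings, 11 to 14 mature β-cell genes were lower and none higher in second-hormone cells, and 9 to 11 α-cell genes were higher.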

Other observations

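Cytokines also changed peptide and immune genes of second-hormone cells that stood at or near 0 without them. Icam1, the adhesion molecule that binds leukocytes, had 465 UMIs in the cytokine sums and 3 in the untreated sums, a ratio of 242 with an exact counting interval of 82.3 to 1177. Nts, the neurotensin gene, had 144 and 2 UMIs (ratio 112, interval 30.6 to 937), and Tac1, the substance P gene, rose by 4.34 ± 0.71 (SE) on the log2 scale. Il4i1, Sprr1a and Gbp10 had 0 UMIs in the untreated sums and 238, 172 and 108 in the cytokine sums. Bmp3, a bone morphogenetic protein, had 48 UMIs untreated and 0 with cytokines.

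Stress and cytokine-response genes were also compared between second-hormone and single-hormone cells across all libraries, where 17.8% of genes were called in either direction. Of 8 stress genes 1 rose (Atf3, log2 difference 0.49 ± 0.17) and 2 fell (Ddit3, -0.68 ± 0.07, and Hspa8, -0.22 ± 0.06, which turned positive with hormone genes kept in unscaled totals). Of 12 cytokine-response genes 3 fell, Gbp2 (-0.23, positive under that same scaling), Gbp5 (-0.44) and Oasl2 (-0.33), and none rose, with a median of -0.10 against -0.02 over all genes.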
